A study of Caenorhabditis elegans with 12 samples.

Results

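The proteasome subunit genes of Caenorhabditis elegans were followed in larvae of the third stage (L3) grown at 15 °C. A gene was taken as a member where its symbol began with pas-, pbs-, rpt- or rpn-, which gave 33 of the 23515 genes in the deposited table. The core particle had 14 members, of which 7 pas genes encode the alpha rings and 7 pbs genes the beta rings. The regulatory particle had 19 members, of which 6 rpt genes encode ATPases and 13 rpn genes encode the other subunits. Polyadenylated RNA from whole larvae was sequenced in 12 libraries, 4 in each of 3 groups. The groups were unc-120(st364) larvae (strain RW364), fhod-1(tm2363) larvae (strain XA8001) and wild-type larvae (strain N2). The product of unc-120 is the counterpart of serum response factor, a regulator of muscle genes, and the product of fhod-1 is a formin, which builds actin filaments. The series asks about the parts these genes play in the development of striated muscle. RNA came from whole larvae, so the values are averages over all tissues and not values of muscle. The labels name no treatment beyond growth on bacteria, and do not say whether the 4 libraries of a group came from separate cultures. The p-values then measure the spread between these libraries, which may be technical.

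The proteasome is the chamber in which cells cut up proteins tagged with ubiquitin. Its core particle is a stack of rings, in which the outer alpha rings form the gate and the inner beta rings hold the proteolytic sites. The regulatory particle sits on the gate. Its ATPase ring unfolds the substrate and threads it into the core, its scaffold and receptor subunits hold ubiquitin, and its lid carries the enzyme that removes the ubiquitin chain. In muscle the proteasome takes part in the turnover of myofibril proteins, and in C. elegans many of its subunits are needed for viability.

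Every column of the table summed to 638200, and its values behaved as TPM, a share of the library's transcripts after division by gene length, up to 1 constant common to all libraries. All levels below are in this unit, and are therefore per length. A dependence on length that remains in the values can still affect comparisons between genes of unlike length. Read totals are not stated and the depth is unknown, so precision rests on the spread between libraries. Between 19400 and 20472 genes were above 0 in a library. The gene unc-120 had a level of 25.6 to 43.1 in unc-120(st364), 17.4 to 20.3 in fhod-1(tm2363) and 9.63 to 15.9 in wild type. The gene fhod-1 had a level of 2.23 to 5.97 in unc-120(st364), 3.21 to 6.16 in fhod-1(tm2363) and 4.00 to 6.24 in wild type, and the groups overlapped. A source label attaches the 2 mutant strain names the other way round, and groups here follow the genotype label. The libraries also differed in how strongly their values depended on gene length. Each library's slope of log2 value on log2 exonic length, relative to the mean library, was -0.327 to 0.174 in unc-120(st364), -0.151 to 0.179 in fhod-1(tm2363) and -0.158 to 0.145 in wild type. The lowest slope, -0.327, belonged to unc-120(st364) replicate 2. Marker genes of body-wall muscle, pharyngeal muscle, hypodermis, intestine, germline and neurons were all present, with 0 of the 48 genes found (of 49 listed) at 0 in every library.

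The subunit genes were among the well expressed genes of the larva. They took 0.637% ± 0.040 of a library's total in unc-120(st364), 0.584% ± 0.030 in fhod-1(tm2363) and 0.651% ± 0.021 in wild type (SD, n = 4 each). By mean level over the 12 libraries, 32 of the 33 members ranked between place 338 (pas-5) and place 1799 (rpn-6.1) of all genes, and rpn-6.2 stood apart at place 11406. The same 32 members passed the filter for testing, which asked for 10 or more in 4 or more of the libraries, as did 5921 genes in all. The members lie on chromosomes I (10 genes), II (7 genes), III (8 genes), IV (3 genes) and V (5 genes). In the annotation 11 of the 33 overlap another gene, among them pbs-4 (mrrf-1, other strand), rpt-4 (nfyc-1 and rpoa-49, other strand), rpn-10 (B0205.12, other strand), rpn-11 (pqn-48, other strand) and rpn-13 (let-767, same strand). The library kit keeps the strand, but whether the counting used it is not stated in the sources used here, so the values of these genes are uncertain to that extent.

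**Figure D1:**
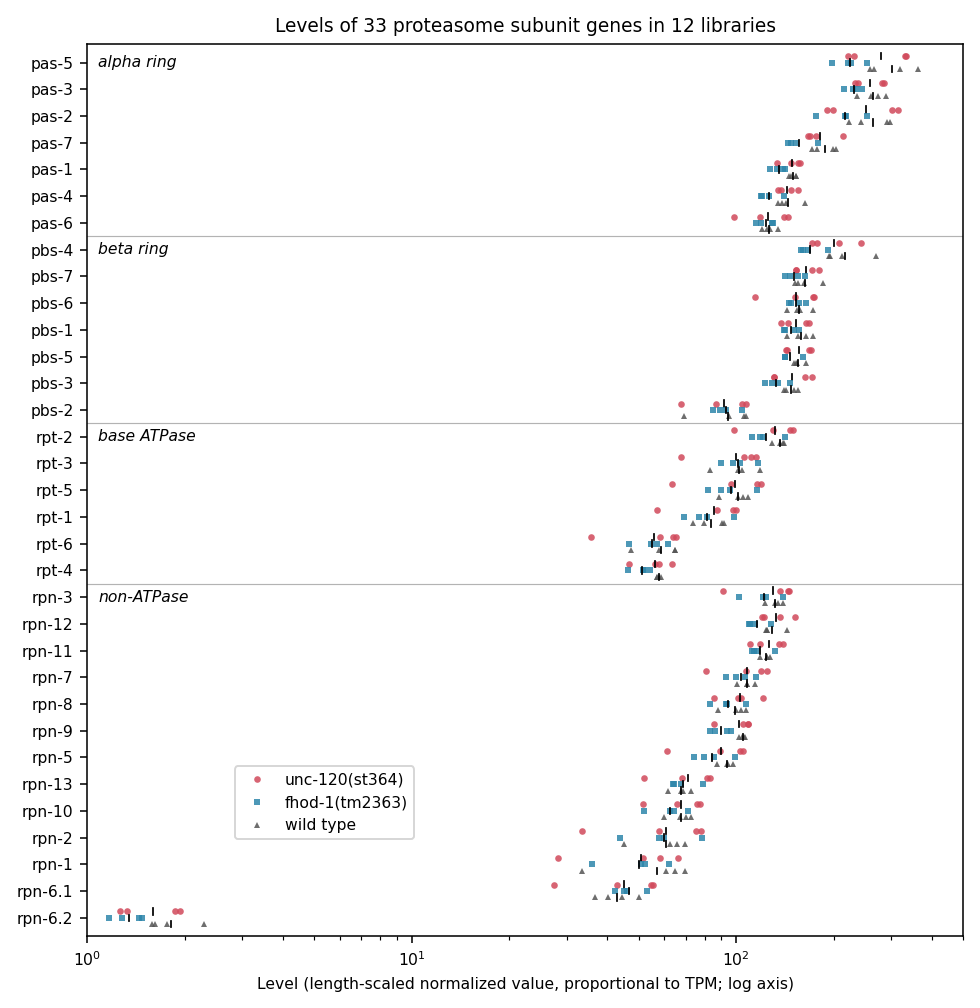
Level of each of the 33 subunit genes (length-scaled normalized value, log axis) in the 4 libraries of unc-120(st364), fhod-1(tm2363) and wild type, grouped by ring or subunit class. Black ticks are group means. Means over the 12 libraries run from 92.8 to 268 for core genes and from 44.9 to 130.1 for the tested regulatory genes, and rpn-6.2 lies apart at 1.58.

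Core genes were expressed at higher levels per length than regulatory genes. Their exonic lengths also differed, at 801 to 1059 bases for core genes and 855 to 3171 bases for the tested regulatory genes. The part of length in the difference in level was not tested. The core members had mean levels over the 12 libraries of 92.8 to 268, with a median of 153, and the 18 regulatory members that passed the filter had mean levels of 44.9 to 130.1, with a median of 93.8. Of the 14 core members, 12 lay above the highest regulatory member, rpt-2. In every one of the 12 libraries the median core level exceeded the median regulatory level, by a ratio of 1.59 to 2.49. That ratio of medians was 1.87 ± 0.42 in unc-120(st364), 1.72 ± 0.10 in fhod-1(tm2363) and 1.70 ± 0.13 in wild type (SD, n = 4 each), and the groups overlapped. The order of the genes was clear in places and not in others. At the top, pas-5 (268), pas-3 (251) and pas-2 (244) had no clear order, since pas-5 was above pas-3, and pas-3 above pas-2, in 7 of 12 libraries each. The step down from pas-2 to pbs-4 (195) held in 12 of 12 libraries, as did the step from pbs-4 to pas-7 (175). Among the regulatory genes, the steps from rpn-11 (122) to rpn-7 (106), from rpn-5 (89.1) to rpt-1 (83.5), and from rpt-1 to rpn-13 (69.1) each held in 12 of 12 libraries. Among neighbours such as rpn-8 (98.9), rpn-9 (98.8) and rpt-5 (98.6) the order changed between libraries, and their means differed by less than their spread.

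Of the alpha ring genes, pas-5 had the highest level and pas-6 the lowest. The gene pas-5 (WBGene00003926, chromosome I, 10566350 to 10567300, WBcel235) stood at 330.2, 333, 221 and 230.3 in unc-120(st364), at 253, 222, 225 and 198 in fhod-1(tm2363), and at 364, 266, 258 and 320.0 in wild type. All 4 fhod-1(tm2363) libraries lay below all 4 wild-type libraries, while the unc-120(st364) libraries spread across both. The gene pas-6 (WBGene00003927, chromosome V, 5583161 to 5584343) stood at 118, 98.5, 140.3 and 144 in unc-120(st364), at 118.99, 115.1, 129 and 129.9 in fhod-1(tm2363), and at 120.2, 127, 135 and 124 in wild type. Its groups overlapped, and unc-120(st364) replicate 2 was its lowest library. For pas-1, which was picked out after its values were seen, the levels were 147, 133, 157 and 155 in unc-120(st364) larvae, 139, 127, 134 and 141 in fhod-1(tm2363) larvae, and 153, 148, 146 and 153 in wild type. Here too all fhod-1(tm2363) libraries lay below all wild-type libraries, by a small margin.

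Of the beta ring genes, pbs-4 had the highest level and pbs-2 the lowest. The gene pbs-4 (WBGene00003950, chromosome I, 3908747 to 3909701), which encodes a subunit without a proteolytic site, stood at 242, 208, 177 and 171 in unc-120(st364), at 191, 166, 159.9 and 158 in fhod-1(tm2363), and at 269, 195, 193 and 212 in wild type. The fhod-1(tm2363) and wild-type libraries did not overlap, but the highest fhod-1(tm2363) library (191) lay close to the lowest wild-type library (193). The proteolytic sites of the core are carried by the products of pbs-1, pbs-2 and pbs-5, known in other eukaryotes for the caspase-like, trypsin-like and chymotrypsin-like activities. Levels of pbs-1 were 144, 137, 164 and 168 in unc-120(st364) larvae, 151, 139.9, 141 and 156 in fhod-1(tm2363) larvae, and 172, 155, 164 and 143 in wild type. For pbs-5 they were 143, 143, 168 and 170.4 in unc-120(st364) larvae, 142, 141, 141 and 160.0 in fhod-1(tm2363) larvae, and 164, 154, 153 and 151 in wild type. The third, pbs-2, stood at 86.8, 67.7, 107 and 104.3 in unc-120(st364), at 93.3, 89.3, 84.7 and 103.8 in fhod-1(tm2363), and at 106, 95.2, 107 and 68.9 in wild type. The groups overlapped for all of these site-bearing subunits, and pbs-2 was the lowest core gene in 12 of 12 libraries.

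The ATPase genes had mean levels over the 12 libraries of 54.9 (rpt-4) to 130.1 (rpt-2). The highest, rpt-2 (WBGene00004502, chromosome V, 6016049 to 6017669), stood at 129.8, 98.5, 147 and 149.99 in unc-120(st364), at 121, 118, 112 and 142 in fhod-1(tm2363), and at 140.2, 136, 139 and 129 in wild type. For rpt-3 the levels were 106, 67.6, 115.4 and 111 in unc-120(st364) larvae, 97.5, 103, 89.4 and 117 in fhod-1(tm2363) larvae, and 103.8, 102, 118 and 83.0 in wild type. Both genes had their lowest library in unc-120(st364) replicate 2, and their groups overlapped. The lowest ATPase gene, rpt-4 (WBGene00004504, chromosome II, 42181 to 46216), stood at 63.6, 46.7, 58.0 and 56.3 in unc-120(st364), at 54.3, 51.5, 46.5 and 51.9 in fhod-1(tm2363), and at 56.9, 57.0, 58.5 and 57.9 in wild type. Its wild-type libraries were close together, with an SD of 0.75, and all 4 fhod-1(tm2363) libraries lay below them.

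Of the subunits that meet ubiquitin first, rpn-1 is a large scaffold that also binds shuttle factors, and rpn-13 and rpn-10 are receptors. The gene rpn-1 (WBGene00004458, chromosome IV, 6906415 to 6909913) stood at 51.6, 28.2, 65.9 and 58.0 in unc-120(st364), at 50.8, 52.5, 35.9 and 62.0 in fhod-1(tm2363), and at 64.6, 60.9, 69.3 and 33.5 in wild type. It had the largest coefficient of variation of the 32 tested members over the 12 libraries, 25.8%, and in each group its lowest library was the one with the lowest length slope. Levels of rpn-13 were 68.2, 52.1, 82.8 and 81.4 in unc-120(st364) larvae, 64.1, 67.7, 63.6 and 79.0 in fhod-1(tm2363) larvae, and 67.4, 68.7, 72.6 and 61.6 in wild type. Levels of rpn-10, which in C. elegans also takes part in sex determination, were 65.6, 51.4, 75.8 and 77.5 in unc-120(st364) larvae, 62.6, 64.4, 52.1 and 71.1 in fhod-1(tm2363) larvae, and 72.7, 67.2, 70.1 and 59.7 in wild type. Neither receptor gene separated the groups.

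The lid holds rpn-11, the deubiquitinase, and its partner rpn-8, together with the scaffold subunits rpn-3, rpn-5, rpn-6.1, rpn-7, rpn-9 and rpn-12. For rpn-11 the levels were 118, 111, 136 and 139 in unc-120(st364) larvae, 116, 111, 113 and 131 in fhod-1(tm2363) larvae, and 127, 118.6, 124 and 124 in wild type. For rpn-8 they were 121, 85.6, 103.7 and 101 in unc-120(st364) larvae, 107, 93.5, 82.9 and 93.2 in fhod-1(tm2363) larvae, and 87.6, 99.6, 107 and 103 in wild type. The catalytic pair thus overlapped between groups. The lid gene with the highest level, rpn-3, stood at 136, 91.2, 144 and 145 in unc-120(st364), at 124, 121, 102 and 139 in fhod-1(tm2363), and at 134, 132, 139 and 123 in wild type. Levels of rpn-9 (WBGene00004465, chromosome II, 11237447 to 11239092), picked out after its values were seen, were 109, 85.7, 105 and 109 in unc-120(st364) larvae, 93.8, 85.9, 82.8 and 96.6 in fhod-1(tm2363) larvae, and 107, 104.5, 102 and 106 in wild type. All 4 fhod-1(tm2363) libraries of rpn-9 lay below all 4 wild-type libraries, and the unc-120(st364) libraries overlapped both.

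The gene rpn-6.1 encodes the lid subunit that clamps the core to the regulatory particle, and in C. elegans it is known for its raised expression in long-lived mutants that lack a germline. It had the lowest level of the tested members. Its values (WBGene00004462, chromosome III, 6959110 to 6962027) were 42.9, 27.5, 54.5 and 55.2 in unc-120(st364) larvae, 45.1, 46.0, 42.3 and 53.1 in fhod-1(tm2363) larvae, and 40.3, 44.5, 50.1 and 36.7 in wild type. The groups overlapped. Its paralog rpn-6.2 (WBGene00010309, chromosome III, 8999828 to 9001973) stood at 1.93, 1.87, 1.26 and 1.33 in unc-120(st364), at 1.45, 1.47, 1.17 and 1.28 in fhod-1(tm2363), and at 2.28, 1.77, 1.62 and 1.58 in wild type. The paralog was the lowest member in 12 of 12 libraries and did not pass the filter. How the authors' counting divided reads between similar copies is not stated in the sources used here, so the values of this pair are uncertain. Fitted with the filter lowered to 1 (12831 genes), rpn-6.2 gave a log2 fold change of -0.26 (SE 0.12) in fhod-1(tm2363) against wild type, with all 4 fhod-1(tm2363) libraries below all 4 wild-type libraries. It was not called (limma adjusted p = 0.227), and on the log2(value + 1) scale the fold change of so low a gene is understated. In unc-120(st364) against wild type its log2 fold change was -0.12 (SE 0.12), with an adjusted p of 1.0 in limma, again not called.

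In unc-120(st364) against wild type no subunit gene was called. The test was a linear model in limma on log2(value + 1), fitted to all 5921 genes, with a call at a Benjamini-Hochberg adjusted p under 0.05. It called 0 of the 32 members, where 0.726% of all tested genes were called. At an unadjusted p under 0.05 the count of members was also 0, where 6.82% of all genes passed. The adjusted p was 1.0 for every member. The log2 fold change was below 0 for 23 of the 32 members and for 50.6% of all genes, and its median was -0.044 over the members and -0.002 over all genes. It was -0.039 at the median of the core members and -0.044 at that of the regulatory members. The member furthest below 0 was the scaffold gene rpn-1, at -0.17 (SE 0.28), and next to it was pas-5, at -0.13 (SE 0.17). The members furthest above 0 were the receptor gene rpn-13, at 0.052 (SE 0.15), and the lid gene rpn-8, at 0.044 (SE 0.14). No member had groups without overlap, where 1.3% of genes were higher and 1.96% lower in that sense. The 95% intervals of the fold change lay within 2-fold in either direction for 32 of 32 members and within 1.5-fold for 30 of 32, so larger differences than these lie outside the intervals, and smaller ones cannot be told from 0 at this spread.

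The median over the members depended on single libraries, and its sign on unc-120(st364) replicate 2. Without unc-120(st364) replicate 2 it was 0.080 in place of -0.044, and the core median minus the regulatory median was -0.14 in place of 0.0045. It also moved by over 1.5 times, with the same sign, without unc-120(st364) replicate 3 (-0.068), unc-120(st364) replicate 4 (-0.076), wild type replicate 1 (-0.016) and wild type replicate 3 (-0.025). Of the 18 tested regulatory members, 17 had their lowest unc-120(st364) level in unc-120(st364) replicate 2. There 14 had their lowest level of all 12 libraries, against 4 of the 14 core members. The mean log2 level of the regulatory members there was 5.96, against 6.45 to 6.59 in the other unc-120(st364) libraries. The same library had the lowest length slope of all 12. After each library was corrected for gene length by loess, the regulatory mean was 6.29 in that library and 6.42 to 6.49 in the others of its group. With the corrected values 0 of 32 members were called in unc-120(st364) against wild type, where 1.81% of genes were called, and the lowest adjusted p of a member in limma was 0.684.

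Marker genes of body-wall muscle had values below 0 in this comparison. All 10 body-wall muscle markers had log2 fold changes below 0, with a median of -0.52, and their summed level was 2489 to 2790 in unc-120(st364), 3286 to 3727 in fhod-1(tm2363) and 3086 to 3961 in wild type. None of the 10 was called with the deposited values, and 4 were called lower after length correction. The 7 intestine markers found had a median of -0.34, with 6 below 0 and 0 called. All 6 tested neuron markers lay above 0, with a median of 0.20 and 0 called, and sums of 245 to 384 in unc-120(st364) and 265 to 280.1 in wild type. The 5 pharyngeal muscle markers had a median of -0.049, with 3 below 0 and overlapping sums. In whole larvae, fewer cells of a type and less RNA per cell cannot be told apart. The part of these shifts in the subunit values was not tested.

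**Figure D2:**
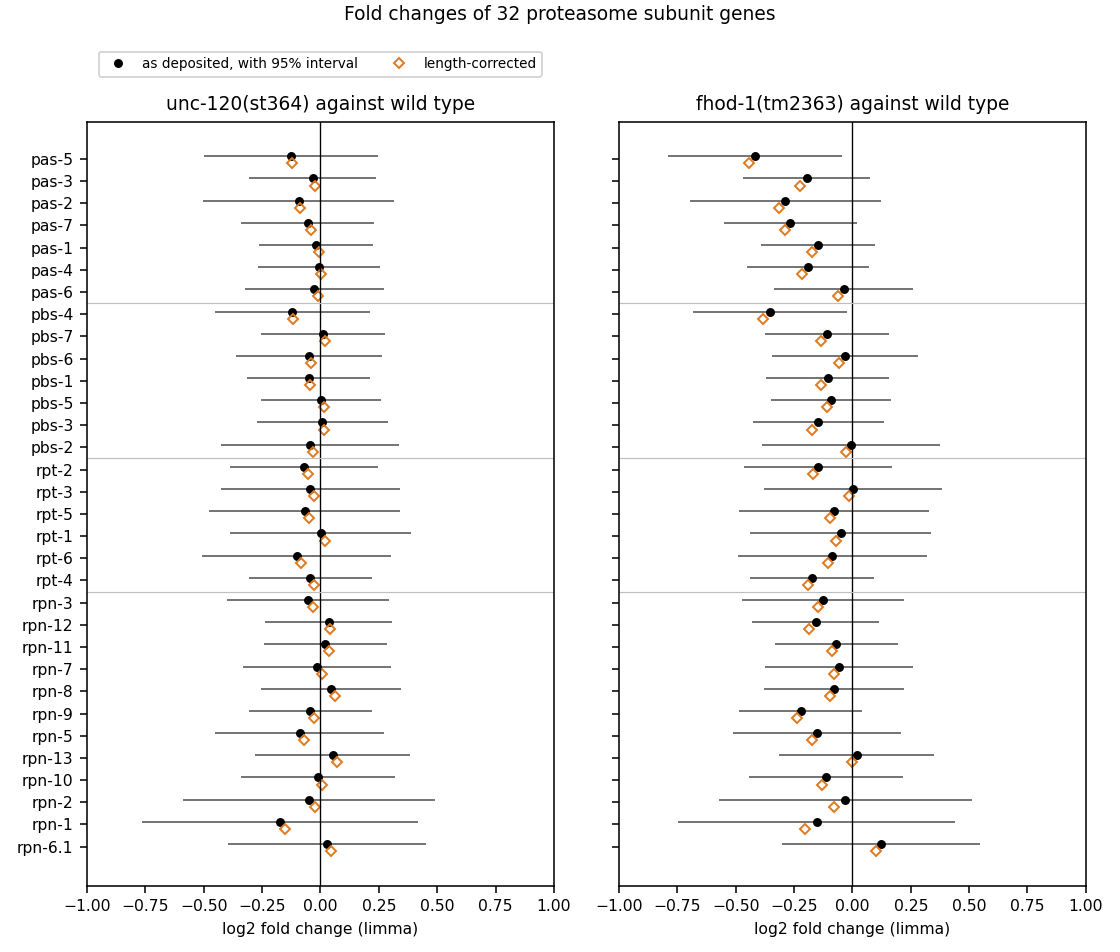
Log2 fold change of the 32 tested subunit genes, with unc-120(st364) against wild type on the left and fhod-1(tm2363) against wild type on the right; black points are limma estimates from the deposited values with 95% intervals, and open orange diamonds are estimates after length correction. The unc-120(st364) points run from -0.17 to 0.052, and the fhod-1(tm2363) points lie below 0 for 29 of 32 genes.

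In fhod-1(tm2363) against wild type most subunit genes had values below 0, but no single gene passed the test. The same limma fit called 0 of the 32 members, where 3.66% of all tested genes were called, and the lowest adjusted p of a member was 0.222. At an unadjusted p under 0.05, 2 members passed, pas-5 and pbs-4, both lower, where 7.41% of all genes passed in the lower direction and 18.1% in either. The log2 fold change was below 0 for 29 of the 32 members, including 14 of 14 core members and 15 of 18 regulatory members, and for 48.7% of all genes. Its median was -0.11 over the members and 0.011 over all genes. With fhod-1(tm2363) replicate 3 left out the members' median was -0.067. The median was -0.15 over the core members and -0.082 over the regulatory members. The core median minus the regulatory median was -0.064, and 0.0081 without wild type replicate 4. With the deposited values the particles were thus not distinguished. The 95% intervals lay within 2-fold for 32 of 32 members and within 1.5-fold for 28 of 32.

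The gene furthest below 0 was the alpha ring gene pas-5, with 224 ± 22.6 in fhod-1(tm2363) and 302 ± 49.8 in wild type (SD, n = 4 each). The estimate was -0.42 on the log2 scale, with an SE of 0.17 and an adjusted p of 0.222 in limma. A two-sided exact permutation test gave p = 0.0286, the smallest that 4 libraries against 4 allow. The beta ring gene pbs-4 followed, with 169 ± 15.3 in fhod-1(tm2363) and 217 ± 35.4 in wild type, a log2 fold change of -0.35 (SE 0.15) and a limma adjusted p of 0.241. Groups without overlap were found for 5 of the 32 members, pas-1, pas-5, pbs-4, rpn-9 and rpt-4, all lower, where 6.25% of all genes were lower without overlap. For rpn-9 the levels were 89.8 ± 6.48 in fhod-1(tm2363) and 105 ± 2.18 in wild type, and the log2 difference was -0.22, with an SE of 0.12 and an adjusted p of 0.363 in limma. For rpt-4 they were 51.0 ± 3.26 in fhod-1(tm2363) and 57.6 ± 0.75 in wild type, and the log2 difference was -0.17, with an SE of 0.12 and an adjusted p of 0.490 in limma. For pas-1 the log2 difference was -0.15, with an SE of 0.11 and an adjusted p of 0.531 in limma. As percent changes of value + 1 these estimates ran from -25.1% for pas-5 to -9.72% for pas-1.

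The other tested members named above had overlapping groups in fhod-1(tm2363) against wild type, and none of them was called. The site-bearing beta subunits gave -0.11 (pbs-1), -0.090 (pbs-5) and -0.0063 (pbs-2), each with an SE of 0.12 to 0.18. The ATPase genes gave -0.15 for rpt-2 and 0.0027 for rpt-3, and the alpha ring gene pas-6 gave -0.037. The scaffold gene rpn-1 gave -0.15, with an SE of 0.28, and its value was -0.39 without wild type replicate 4 and -0.0036 without fhod-1(tm2363) replicate 3. The receptor genes gave -0.11 for rpn-10 and 0.018 for rpn-13, and the lid genes gave -0.13 for rpn-3, -0.078 for rpn-8 and -0.068 for rpn-11. The value furthest above 0 was that of rpn-6.1, at 0.12 with an SE of 0.20 and an adjusted p of 0.793 in limma, with 46.6 ± 4.61 in fhod-1(tm2363) and 42.9 ± 5.76 in wild type (SD, n = 4 each). The signs of pbs-2, rpt-3 and rpn-13 depended on the scaling or on single libraries, so no direction is given for them.

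As sums, in which genes with high levels weigh most, all members together and the core members separated fhod-1(tm2363) from wild type. For single genes in this comparison, 6.25% of all tested genes were lower and 6.72% higher without overlap. The mean log2 level over all tested members, in which each gene weighs alike, overlapped between these groups. It was 6.63 to 6.84 in fhod-1(tm2363) and 6.79 to 6.92 in wild type. The mean log2 level of the core genes alone did not overlap, at 7.22 to 7.36 in fhod-1(tm2363) and 7.38 to 7.50 in wild type. That of the regulatory genes did, at 6.15 to 6.52 in fhod-1(tm2363) and 6.28 to 6.53 in wild type. The share of the library's total was 0.550% to 0.613% in fhod-1(tm2363) and 0.634% to 0.682% in wild type, without overlap. The core sum was 2202 ± 111 in fhod-1(tm2363) and 2529 ± 146 in wild type, and the ranges, 2138 to 2368 and 2388 to 2698, were apart by a narrow gap. The regulatory sum was 1522 ± 152 in fhod-1(tm2363) and 1624 ± 90.8 in wild type (SD, n = 4 each), and here the groups overlapped. In unc-120(st364) the core sum was 2453 ± 161 and the regulatory sum 1613 ± 274, which overlapped both other groups. Members of 1 library share its depth and composition, so these sums and means are given without a test.

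After length correction the largest SE of a member was 0.17, against 0.28 with the deposited values, while the SD of the core mean log2 level over the wild-type libraries was 0.083, against 0.055. In fhod-1(tm2363) against wild type the median over the members was then -0.13, against -0.022 over all genes, and 31 of 32 members lay below 0, against 53.2% of genes. Groups without overlap were found for 13 of 32 members, all lower, where 13.8% of genes were lower without overlap. They were pas-1, pas-3, pas-4, pas-5, pas-7, pbs-3, pbs-4, pbs-7, rpt-4, rpn-3, rpn-5, rpn-9 and rpn-12. Of the 32 members 1 was called after this correction, rpn-9, at -0.24 (limma adjusted p = 0.0437), where 17.4% of genes were called, so the share of members called was below that of all genes. Next to it were pas-5, at -0.44 (limma adjusted p = 0.0509), and pbs-4, at -0.38 (limma adjusted p = 0.0515). With the length slope as a covariate instead, pas-5 was the 1 member called, at -0.41 (limma adjusted p = 0.0224), and rpn-9 missed the threshold (limma adjusted p = 0.0675).

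Of the 6 marker lists, the neuron markers were the list whose sums did not overlap between fhod-1(tm2363) and wild type. The 8 neuron markers had a summed level of 328 to 421 in fhod-1(tm2363) and 265 to 280.1 in wild type, and all 6 that passed the filter had log2 fold changes above 0. The 5 pharyngeal muscle markers all lay above 0 as well, with sums of 212 to 319.6 in fhod-1(tm2363) and 133 to 228 in wild type. The 10 germline markers had sums of 51.4 to 74.0 in fhod-1(tm2363) and 62.7 to 109.6 in wild type, with 2 of 2 tested markers below 0. The sums of the body-wall muscle, hypodermis and intestine markers overlapped between these groups, at 1651 to 2490 in fhod-1(tm2363) and 1646 to 3645 in wild type for the 8 hypodermis markers. With the deposited values 0 markers of any list were called. After length correction, where 17.4% of all genes were called, 4 neuron markers and the hypodermis marker elt-3 were called higher. The germline marker glh-1, the body-wall muscle marker unc-54 and the intestine marker act-5 were called lower in that fit. The lists of elt-3 and unc-54 were divided there. Of the 10 body-wall muscle markers 5 lay above and 5 below 0 (median 0.010), and of the 6 tested hypodermis markers 3 above and 3 below. Of the 7 intestine markers 6 lay below 0. The part of these shifts in the subunit values was not tested.

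Between the mutants, limma called 0 of the 32 members in unc-120(st364) against fhod-1(tm2363), where 1.44% of genes were called, and 0 members passed an unadjusted p under 0.05, where 11.1% of genes did. This comparison shares its libraries with the 2 above and adds no independent samples. The log2 fold change was below 0 for 7 of the 32 members and for 52.7% of all genes, with a median of 0.083 over the members and -0.016 over all genes. The median over the members was between 0.020 and 0.035 without unc-120(st364) replicate 3 or 4 or fhod-1(tm2363) replicate 3, and 0.18 without unc-120(st364) replicate 2. The gene furthest above 0 was pas-5, at 0.29 with an SE of 0.17 and an adjusted p of 0.615 in limma, with 278 ± 61.4 in unc-120(st364) larvae and 224 ± 22.6 in fhod-1(tm2363) larvae (SD, n = 4 each). It was followed by pbs-4, at 0.23 (SE 0.15). Furthest below 0 were rpn-6.1, at -0.095 (SE 0.20), and rpt-3, at -0.046 (SE 0.18), and both signs turned when single libraries were left out. After length correction 0 members were called, where 5.09% of genes were, and 5 members (pas-3, pas-4, rpn-3, rpn-9 and rpn-12) were higher in unc-120(st364) without overlap, where 9.84% of genes were.

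**Figure D3:**
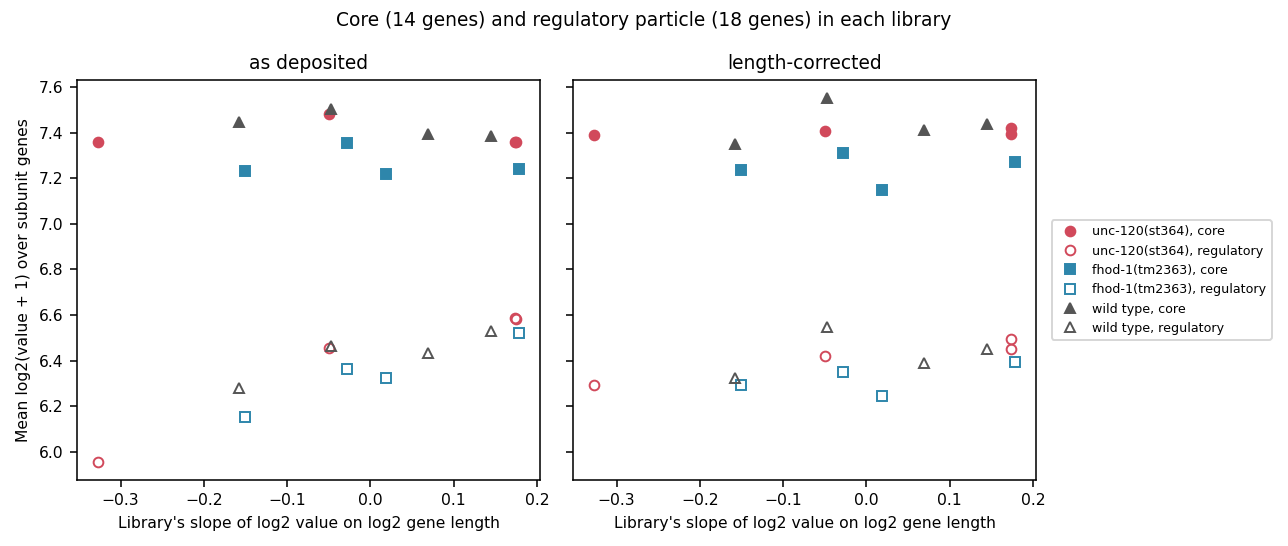
Mean log2(value + 1) over the 14 core genes (filled) and the 18 tested regulatory genes (open) of each library, against the library's slope of log2 value on log2 gene length, with the deposited values on the left and after length correction on the right. Regulatory means on the left lie between 5.96, at the lowest slope, and 6.59. The fhod-1(tm2363) core means on the right, 7.15 to 7.31, lie below all other core means. On the left they do so too, but their highest, 7.3556, nearly meets the lowest other, 7.3565 in unc-120(st364).

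Core and regulatory genes followed the libraries' length dependence in different ways. The difference between the mean log2 levels of the particles in a library ran against the length slope, with Pearson's r = -0.976 and Spearman's rho = -0.979 over 12 libraries, and with r = -0.960 over 10 libraries when the 2 with slopes most distant from the median were left out. The regulatory mean followed the slope with r = 0.923 and the core mean with r = -0.158. The exonic lengths are 801 to 1059 bases for core genes and 855 to 3171 for the tested regulatory genes. After loess correction the difference between the particles still followed the slope with r = -0.691, and with r = -0.325 without the 2 farthest libraries. These are descriptions over libraries of 3 groups, and both measures come from the same values. The slope itself did not separate the groups, at -0.007 ± 0.238 in unc-120(st364), 0.005 ± 0.136 in fhod-1(tm2363) and 0.002 ± 0.133 in wild type (SD, n = 4 each). The ratio of core to regulatory level was 1.71 to 2.64 in unc-120(st364), 1.64 to 2.11 in fhod-1(tm2363) and 1.81 to 2.24 in wild type, as 2 to the power of the difference of log2 means. After length correction these ranges were 1.90 to 2.14 in unc-120(st364), 1.84 to 1.95 in fhod-1(tm2363) and 1.98 to 2.04 in wild type. The fhod-1(tm2363) and wild-type ranges then did not overlap, and this difference was not tested.

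**Figure D4:**
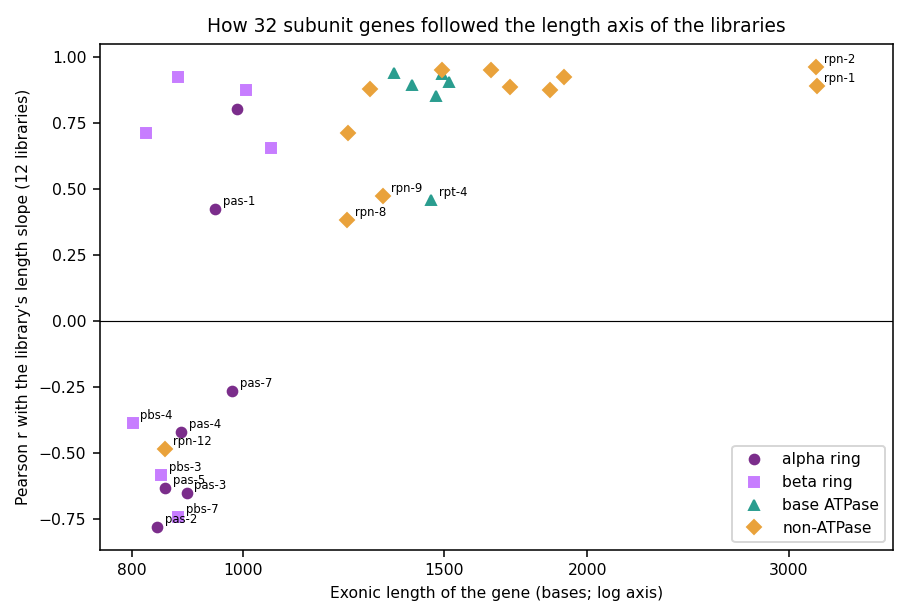
Pearson r between each tested gene's log2 level and the library's length slope over 12 libraries, against the gene's exonic length (log axis), by ring or subunit class. Core genes of similar length split into 6 with positive and 8 with negative r, and rpn-12 is the regulatory gene with negative r.

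The core genes split into sets whose lengths overlapped. In 6 of them (pas-1, pas-6, pbs-1, pbs-2, pbs-5 and pbs-6) the level followed the length slope with r of 0.425 to 0.924, and in the other 8 (pas-2, pas-3, pas-4, pas-5, pas-7, pbs-3, pbs-4 and pbs-7) with r of -0.781 to -0.265. The lengths are 822 to 1059 bases in the first set and 801 to 979 bases in the second. Of the 18 tested regulatory genes, 17 had a positive r and rpn-12, which at 855 bases is the shortest of them, had r = -0.487. Across the 32 genes, which are not independent replicates, the r of a gene with the slope and its log2 length were correlated at 0.658. The sets were drawn from these same values, so they are described and not tested. In fhod-1(tm2363) against wild type the median log2 fold change was -0.23 over the 8 genes with negative r and -0.064 over the 6 with positive r. In unc-120(st364) against wild type the medians were -0.044 over the 8 genes with negative r and -0.035 over the 6 with positive r.

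**Figure D5:**
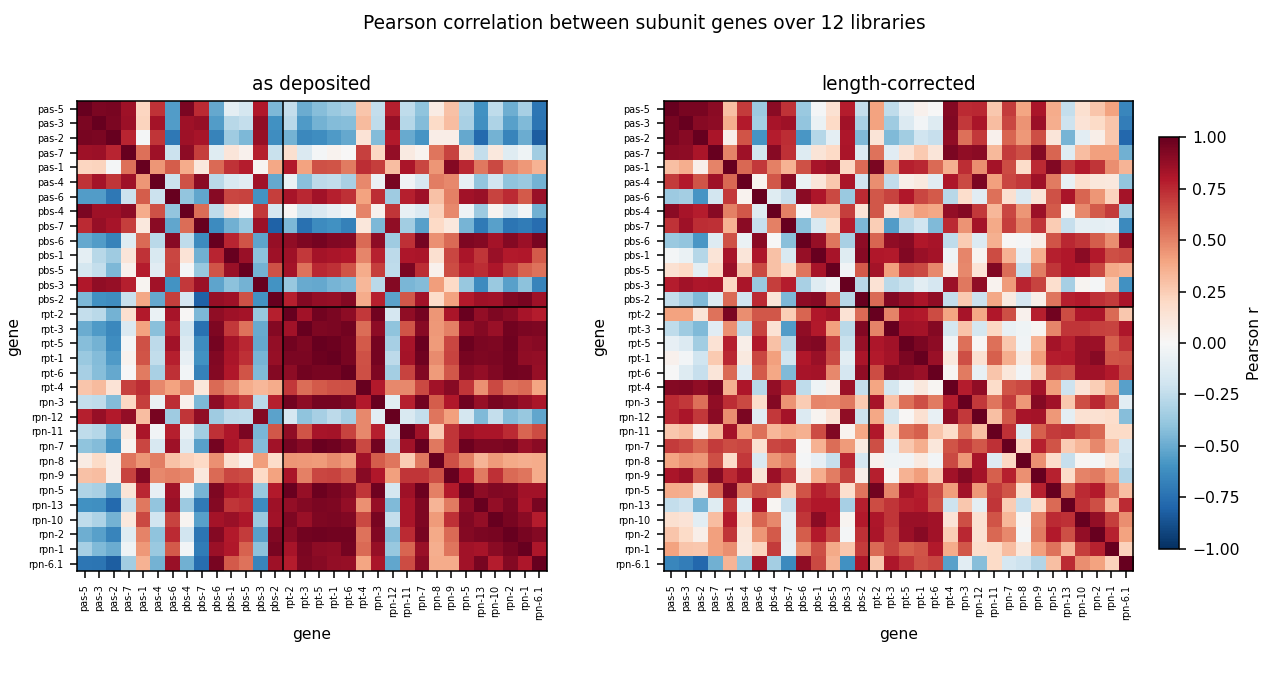
Pearson correlation over 12 libraries between the log2 levels of each pair of the 32 tested subunit genes, with the deposited values on the left and after length correction on the right. Black lines divide core from regulatory genes, and red marks positive and blue negative r. Regulatory genes form a block with a median r of 0.837 on the left and 0.550 on the right.

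With the deposited values the regulatory genes varied together over the 12 libraries, and the core genes did so less. Over the 153 pairs of regulatory genes the median r was 0.837, and 139 pairs were positive. Over the 91 pairs of core genes the median was 0.370, and over the 252 pairs between the particles it was 0.196. Within the set of 8 core genes with negative r to the slope the median was 0.847, within the set of 6 it was 0.692, and between these sets it was -0.273. The sets were drawn by the sign of that r over the same 12 libraries, so these medians were partly fixed beforehand. After length correction the medians were 0.550 for regulatory pairs, 0.496 for core pairs and 0.442 between the particles. The regulatory and core medians were then closer to each other. Between the sets of core genes the median was then -0.084, while within them it was 0.815 for the set of 8 and 0.807 for the set of 6. The genes most like the mean of all other members were rpn-3 (r = 0.958), rpt-2 (r = 0.931), rpn-5 (r = 0.927), rpn-10 (r = 0.908) and rpn-7 (r = 0.902). The least alike were pbs-7 (r = -0.322) and pas-2 (r = -0.295). All points share depth and base composition within a library, and no p is given for these correlations. No pairs of other genes are given beside them, so they are not said to be particular to the members.

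Other genes of the ubiquitin and proteasome pathway were not called in any of the 3 comparisons with the deposited values. Of ubiquitin, the E1 enzyme and E2 enzymes, which activate ubiquitin and pass it on, 15 of 18 genes passed the filter, with a median log2 fold change of 0.038 in unc-120(st364) against wild type and 0.0035 in fhod-1(tm2363) against wild type. Of the ligases and cullins, which choose the substrate, 18 of 20 genes passed, with a median of -0.077 for unc-120(st364) and of -0.046 for fhod-1(tm2363), each against wild type. Of the p97, shuttle, proteasome-bound and assembly factors, 13 of 14 genes were found and passed, with a median of -0.074 for unc-120(st364) and of -0.17 for fhod-1(tm2363), and 10 of the 13 lay below 0 in fhod-1(tm2363). Of the genes known to regulate proteasome gene expression in C. elegans, among them the transcription factor skn-1 and the protease ddi-1, 4 of 5 passed, with a median of -0.083 for unc-120(st364) and of -0.13 for fhod-1(tm2363). The summed level of these 5 genes was 231 to 264 in fhod-1(tm2363) and 270 to 292 in wild type, without overlap. This was not tested, and the sums of the other lists here overlapped. The gene skn-1 itself gave 0.36 on the log2 scale, with an SE of 0.28 and an adjusted p of 0.531 in limma, in fhod-1(tm2363) against wild type. After length correction, where 17.4% of genes were called in fhod-1(tm2363) against wild type, 1 E2 gene and 1 p97 factor were called. The E2 gene ubc-14 had 16.7 ± 1.44 in fhod-1(tm2363) and 19.5 ± 2.75 in wild type, with a corrected log2 fold change of -0.26 (limma adjusted p = 0.0491). The p97 cofactor ufd-3 had 27.4 ± 5.89 in fhod-1(tm2363) and 31.7 ± 5.37 in wild type, with a corrected log2 fold change of -0.25 (limma adjusted p = 0.0403). No other gene of these 4 lists was called in any comparison after the correction.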

How the data were processed

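Libraries were made from polyadenylated RNA with a stranded kit, per the labels' protocols. The submitters' processing notes name Bowtie2 2.2.5, Partek and the build WBcel235, with no role given. The deposited table holds what its name calls normalized counts. The deposited values were treated as TPM up to a constant. Low values times exonic length lay within 0.1 of a step of whole multiples for 34.5% to 40.8% of values. Without the length the share was 22.7% to 23.8%. In both cases each library's step was the one, of many tried, with the highest share. The 20.0% that a step fixed beforehand gives by chance is therefore not the chance level of these shares. Depth is unknown. A filter and a test for normalized counts had been planned, and were kept. Positions are those of the table, with its end lowered by 1, since 55.6% of its ends lay 1 above the annotated end and 1.21% equalled it. Lengths and overlaps came from Ensembl release 115. In it 38.54% of genes, and 12 of the 33 members, had the same start and end as the deposited positions. Lengths and overlaps may therefore differ from those of the gene models that were counted.

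Genes that reached 10 in 4 or more libraries (5921, of which 5914 had a length) were fitted as log2(value + 1) with limma 3.58.1 in R 4.3.3 (lmFit, eBayes with a trend), 1 mean for each of 3 groups, no block. Calls were made at a Benjamini-Hochberg adjusted p under 0.05 over all genes fitted. Single genes were also compared by two-sided exact permutation. Length correction was a loess per library on log2 length (span 0.5, degree 1). Alternatives are named in the closing section, and the fit was checked on simulated data. Tables and plots were made with Python 3.11.15, pandas 2.3.3 and matplotlib 3.10.9.

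The members, lists and alternatives were chosen with earlier results of these data known. The rule for members given by library took the highest and lowest gene of each class, the site-bearing beta subunits, rpn-6.1, rpn-6.2, rpn-10 and rpn-11, and the 2 largest and 2 smallest fold changes of each comparison. It named 17 members, and pas-1 and rpn-9 were added.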

Additional observations from a re-analysis of the deposited data

Results flagged for a closer look

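Single libraries stood apart from the other 3 of their group, by the ratio of the gap to the whole range (Dixon's criterion at the 95% level), in 5 of 108 sets of 4 libraries. Chance gives about 1 in 20 such sets. The level of pbs-5, a beta subunit with a proteolytic site, was 160.0 in fhod-1(tm2363) replicate 4 and 141 to 142 in the other fhod-1(tm2363) libraries. The level of the lid gene rpn-12 was 144 in wild type replicate 4 and 123 to 124 in the other wild-type libraries. The level of the lid gene rpn-3 was 91.2 in unc-120(st364) replicate 2 and 136 to 145 in the other unc-120(st364) libraries. The mean log2 level of the core genes was 7.48 in unc-120(st364) replicate 1 and 7.36 in each of the other 3. The same mean was 7.36 in fhod-1(tm2363) replicate 1 and 7.22 to 7.24 in the other fhod-1(tm2363) libraries.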

How the results depend on the processing

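Each comparison was repeated with pseudocounts of 0.5 and 10, a filter of 1 or of any value above 0, upper-quartile and quantile scaling, both length corrections, no trend, only the groups compared, a replicate block, and each library left out. The count of subunit genes called was 0 throughout, except for 1 in fhod-1(tm2363) against wild type under the loess correction (rpn-9, -0.24) and 1 with the length slope as a covariate (pas-5, -0.41). The other values below are log2 fold changes. In fhod-1(tm2363) against wild type, the value of pbs-2 was 0.0007 under upper-quartile scaling and 0.018 under quantile normalization. Under loess, rpt-3 gave -0.015 and rpn-13 -0.0004, and rpt-3 gave -0.0007 with the covariate. The cause was not tested. With single libraries left out, pbs-2 ranged over -0.15 to 0.062, rpt-3 over -0.090 to 0.078 and rpn-13 over -0.050 to 0.053. Without a turn of sign, rpn-10 ranged over -0.18 to -0.028, rpn-3 over -0.20 to -0.048 and rpn-8 over -0.14 to -0.019. In unc-120(st364) against wild type the ranges were -0.41 to 0.081 for rpn-1, -0.028 to 0.19 for rpn-13 and -0.037 to 0.13 for rpn-8. In unc-120(st364) against fhod-1(tm2363) they were -0.21 to 0.12 for rpn-6.1 and -0.12 to 0.13 for rpt-3. The median over the members ranged over -0.076 to 0.080 in unc-120(st364) against wild type, -0.15 to -0.067 in fhod-1(tm2363) against wild type, and 0.020 to 0.18 in unc-120(st364) against fhod-1(tm2363). The core median minus the regulatory median ranged over -0.14 to 0.052, -0.12 to 0.0081 and -0.086 to 0.20 in these comparisons, in that order. Libraries with the same replicate number share a letter in their titles, with no stated meaning. Their deviations correlated at -0.711 to 0.850, and every r of replicate 1 was 0.532 or more and the best match, but not all pairs were above 0.1, so no pairing was assumed. In this balanced design a replicate block leaves every fold change as it is and alters the p-values alone. With it 0 members were called in each comparison, against 0 without it.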

Other observations

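The COP9 signalosome and the translation factor eIF3 are complexes in which some, but not all, subunits are of the same kinds as those of the proteasome lid. Of 19 genes listed for them, 17 were found and 14 passed the filter, and limma called 0 in each comparison with the deposited values. In fhod-1(tm2363) against wild type 12 of the 14 lay below 0, with a median log2 fold change of -0.12, against 0.011 over all genes. Their summed level was 984 to 1208 in fhod-1(tm2363) and 1133 to 1284 in wild type. In unc-120(st364) against wild type 7 of the 14 lay below 0, with a median of 0.024. After length correction, 1 of the 14 was called, where 17.4% of all genes were. This was eif-3.B, with 71.9 ± 15.8 in fhod-1(tm2363) and 89.5 ± 10.6 in wild type (SD, n = 4 each), a corrected log2 fold change of -0.37 and a limma adjusted p of 0.0435.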
